A study of Mus musculus with 2 samples.

Results

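The 45 genes described here make or drive the machinery that copies DNA, and they were chosen by name from 21755 protein-coding genes of the mouse. By role, 15 license replication origins, 6 start them, 19 work at the fork, 3 supply nucleotides and 2 (Top2a and Mki67) are used as markers of dividing cells. For each gene, peaks and footprints of DNase-seq were taken within 1 kb of its start sites and over its span with 10 kb on each side. DNase-seq sequences the ends left when the enzyme DNase I cuts nuclear DNA, so a peak marks open chromatin, and a footprint marks a short stretch within it that is cut less than its surroundings, as happens where a protein is bound. The tissue was thymus from adult female B6CASTF1/J mice, which are first-generation hybrids between B6 and CAST, at 18 to 20 months of age, and the labels list no treatment or engineered allele. The group held 2 libraries, biological replicates 1 and 2, which carry separate biosample records and the same donor record. Whether they came from separate animals is not said, and their spread may be technical. With 1 group there was no condition to compare, and all counts below are descriptions without a test.

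Before S phase, the origin recognition complex, with Cdc6 and Cdt1, loads the ring of Mcm2 to Mcm7 onto DNA, and geminin (Gmnn) holds Cdt1 back once replication has begun. Cdc45 and the GINS complex then turn the loaded ring into a moving helicase, primase and polymerases alpha, delta and epsilon build the new strands, and PCNA, clamped on by replication factor C, keeps them in place. Many of these genes are targets of the E2F factors, which the RB family restrains in resting cells, whereas genes of mitosis are often controlled through the cell cycle genes homology region (CHR) and NF-Y letters. Immature T cells divide in bursts in the thymus, and the organ shrinks with age.

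Every replication and proliferation gene had an open promoter in both libraries. All 45 of 45 had a peak of the shorter deposited list centred within 1 kb of a start, against 53.9% of all protein-coding genes (11718 of 21755). The longer list gave 45 of 45 against 58.3%. All 76 of 76 further genes of the same pathways (fork and origin factors, nucleotide supply, the E2F and RB families, mitosis) were open as well. The strongest promoter peaks of both libraries overlapped for 42 of the 45 genes (93.3%) and for 96.1% of all genes with a promoter peak in both. The exceptions were the flap nuclease gene Fen1, Mcm7 and Orc6, each with at least 2 promoter peaks, of which a different peak was the strongest in each library.

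Letters of the E2F consensus lay in promoter footprints of 9 of the 45 genes in both libraries (20%), against 2.90% of all 11718 genes with a promoter peak in both. The share was not particular to the 45. Among the further genes of the same pathways, 5 of 24 fork and origin genes (20.8%) and 2 of 12 nucleotide supply genes (16.7%) had them. So did 2 of 20 genes of the E2F and RB families (10%) and 0 of 20 genes of mitosis. The letters searched were TTTCCCGC, TTTCGCGC, TTTGCCGC and TTTGGCGC on both strands, and a match had to lie wholly inside a footprint widened by 5 bp on each side. The 9 genes were the licensing genes Orc1, Cdt1, Gmnn, Mcm3, Mcm5 and Mcm7 (6 of 15), the GINS gene Gins1 (1 of 6), the polymerase delta gene Pold3 (1 of 19 fork genes) and Rrm2 (1 of 3), which encodes the small subunit of ribonucleotide reductase. Neither Top2a nor Mki67 had them. By library, 10 genes (22.2%) had them in replicate 1 and 12 (26.7%) in replicate 2, against 3.83% and 4.14% of all genes. The count rests on the widening: without it, 2 genes remained (Gins1 and Mcm5, 4.44% against 1.19%), and with 10 bp on each side there were 13 (28.9% against 4.04%).

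The stretches below, from GRCm38.p6, are the 6 of the 9 promoters with the highest signal, shown because the E2F letters of each lie in a footprint of both libraries. Each is written 5′ to 3′ in the direction of its gene, with the E2F letters of either strand in capitals. They are reference sequence, and differences carried by the CAST allele were not tested.
Mcm5, chr8:75109316-75109407: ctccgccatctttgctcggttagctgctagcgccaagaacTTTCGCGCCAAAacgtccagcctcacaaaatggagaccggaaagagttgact
Pold3, chr7:100121467-100121496: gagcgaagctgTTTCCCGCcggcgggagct
Orc1, chr4:108579416-108579445: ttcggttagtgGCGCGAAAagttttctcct
Cdt1, chr8:122568036-122568065: ggaactaccttTTTGGCGCcatggcgcaaa
Gins1, chr2:150909576-150909605: ttgagcctaTTTGGCGCCAAAgcgaggagc
Rrm2, chr12:24708702-24708751: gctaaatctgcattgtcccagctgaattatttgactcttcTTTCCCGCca
Mcm5 and Gins1 each hold overlapping matches, read from opposite strands. In Gins1 both strands read TTTGGCGC, while in Mcm5 the forward strand reads TTTCGCGC and the reverse TTTGGCGC.

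Most of these letters sat close to a start site. Measured from the nearest start, the middle of the match was at -209 and -205 bp in Mcm5, -46 in Mcm7, -23 in Orc1, -16 in Pold3 and -5 and -1 in Gins1. It was downstream at 22 bp in Mcm3, 36 in Cdt1, 284 in Gmnn and 505 in Rrm2. The matches of Mcm5 lay upstream and outside genes, those of Mcm3, Cdt1, Pold3 and Mcm7 in untranslated regions, and those of Gmnn and Rrm2 in introns. Over all E2F matches in members' footprints, 61.5% of 13 in replicate 1 and 60% of 15 in replicate 2 lay within 150 bp of a start, against 53.8% and 51.1% over all genes.

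**Figure D1:**
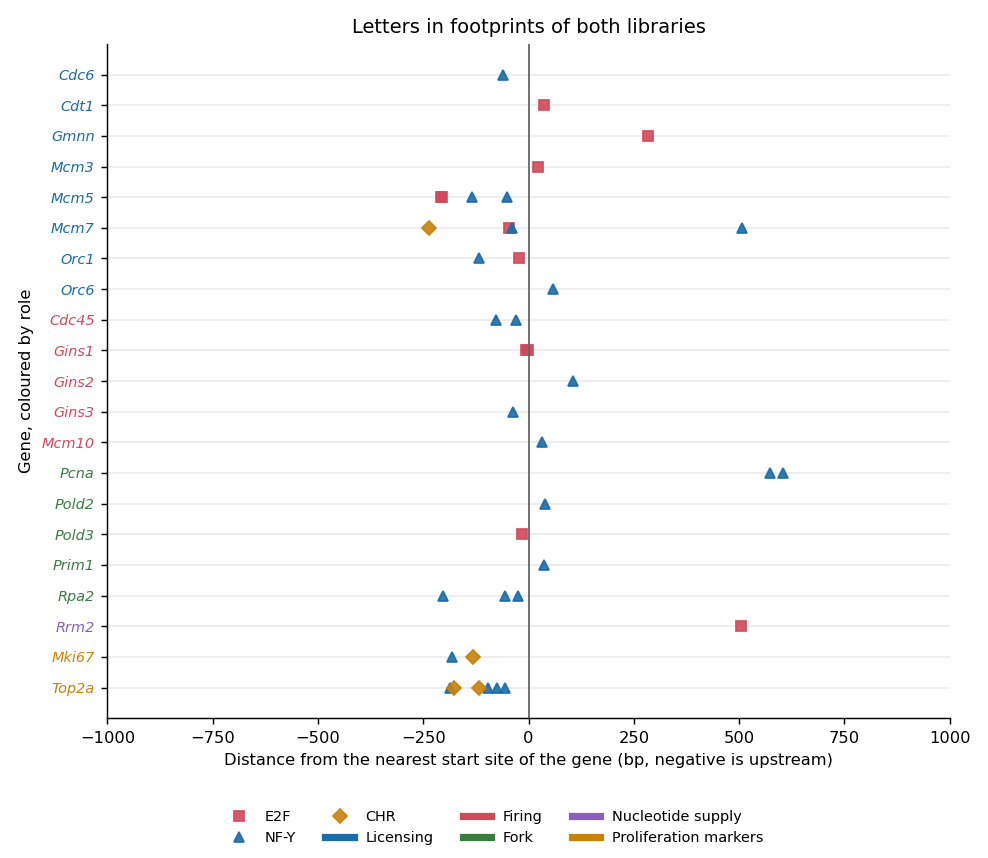
Position of E2F (squares), NF-Y (triangles) and CHR (diamonds) letters found in a footprint of both libraries, for the 21 genes that have any, as distance in bp from the nearest start site (0, vertical line). Gene names are coloured by role. Licensing genes hold 6 of the 9 genes with E2F letters, and Top2a and Mki67 hold CHR with NF-Y letters and no E2F letters.

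More promoters carried the E2F letters than carried them inside a footprint. The strongest promoter peak held them in 15 of 45 genes (33.3%) in each library, against 4.51% and 4.57% of all genes with a promoter peak in both. The window from 250 bp before to 50 bp after the start in RefSeq held them in 14 of the 37 members found there (37.8%). Over all 16450 genes found there, with or without a promoter peak, the share was 3.33%. Of the matches inside those peaks, 6 of 21 (28.6%) lay in a footprint in replicate 1 and 9 of 22 (40.9%) in replicate 2, below the 50.9% and 53.2% over all genes. These shares rest on few matches. In Mcm6, Mcm2, Mcm4, Orc3, Pole, Pole2, Lig1 and Gins3 the peak held the letters in both libraries and no widened footprint covered them whole. The nearest footprint of Mcm6 was 2 bp from a match in both libraries, and that of Mcm2 was 7 bp away in both. The stretches below, chosen after these values were seen, show those letters in capitals.
Mcm6, chr1:128359720-128359840: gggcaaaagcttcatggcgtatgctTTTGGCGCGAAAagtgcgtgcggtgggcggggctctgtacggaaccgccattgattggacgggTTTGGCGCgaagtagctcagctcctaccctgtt
Mcm2, chr6:88898676-88898705: gtctagtTTTCGCGCGAAAaccggtggcag
Mcm6 holds 3 matches, of which 2 overlap, and Mcm2 holds 2 that share a run reading TTTCGCGC from either strand.

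The proliferation markers showed other letters. CHR letters (TTTGAA or TTCGAA) lay in footprints of both libraries in 3 of 45 genes (6.67%, against 3.46% of all genes), namely Top2a, Mki67 and Mcm7, and in 9 of 20 genes of mitosis (45%), among them Cdk1, Ccnb2 and Plk1. NF-Y letters (CCAAT) lay there in 15 genes (33.3%, against 19.5%) and in 12 of 20 genes of mitosis (60%), while no gene of mitosis had E2F letters there. The 15 genes were 5 licensing genes (Orc1, Orc6, Cdc6, Mcm5, Mcm7), 4 of 6 firing genes (Mcm10, Gins2, Gins3, Cdc45), 4 fork genes (Pcna, Rpa2, Prim1, Pold2) and both markers. Top2a, the topoisomerase that untangles replicated chromosomes, held CHR letters at -118 and -177 bp and NF-Y letters at -56, -76, -96 and -187. Mki67, the gene of the Ki-67 antigen, held CHR letters at -132 and NF-Y letters at -182. In the stretches, capitals mark CHR and NF-Y letters of either strand that lay in a footprint of both libraries. Further CHR or NF-Y letters are left in lower case. The stretches were chosen after the values were seen.
Top2a, chr11:99024218-99024403: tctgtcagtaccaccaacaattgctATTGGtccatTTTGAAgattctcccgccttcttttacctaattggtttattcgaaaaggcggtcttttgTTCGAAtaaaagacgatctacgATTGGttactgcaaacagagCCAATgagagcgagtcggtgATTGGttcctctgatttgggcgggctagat
Mki67, chr7:135716465-135716570: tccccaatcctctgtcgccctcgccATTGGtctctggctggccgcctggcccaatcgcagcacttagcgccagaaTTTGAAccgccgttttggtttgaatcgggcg
Mcm7, chr5:138172039-138172068: gcgagcattaatTTCGAAccgcgggaaaca
In Mcm7 the CHR letters (-236 bp) adjoin a reverse-strand E2F match in lower case (-227 bp) that lay wholly inside the widened footprint in replicate 2 and ran past its edge in replicate 1.

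Other letter families differed less from the background, apart from ETS. ETS letters (CCGGAAG) lay in footprints of both libraries in 16 genes (35.6%, against 14.8%), 7 of them fork genes (Rpa2, Rpa3, Rfc3, Rfc4, Lig1, Pold3, Fen1) and 5 licensing genes (Orc1, Orc3, Orc4, Gmnn, Mcm4). SP and KLF letters (GGGCGG) were in 30 genes (66.7%, against 68.1%). NRF1 letters (GCGCATGC) were in 5 (11.1%, against 7.18%), E-box letters (CACGTG) in 4 (8.89%, against 5.53%), cyclic AMP response element letters (TGACGTCA) in 2 (4.44%, against 4.69%) and YY1 letters (AAGATGGC) in Rpa2 alone (2.22%, against 3.23%). The families do not exclude each other, and a match names letters, not a bound factor. SP and KLF letters also lay in footprints of both libraries in Pold3, Orc1, Cdt1, Gins1, Rrm2, Mcm7 and Gmnn, which have E2F letters there. Stretches of the 2 strongest members without E2F letters in footprints are given, with SP and KLF, ETS and E-box letters in capitals.
Pold1, chr7:44548894-44548959: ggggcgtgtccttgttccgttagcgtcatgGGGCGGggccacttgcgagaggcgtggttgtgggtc
Orc4, chr2:48949277-48949474: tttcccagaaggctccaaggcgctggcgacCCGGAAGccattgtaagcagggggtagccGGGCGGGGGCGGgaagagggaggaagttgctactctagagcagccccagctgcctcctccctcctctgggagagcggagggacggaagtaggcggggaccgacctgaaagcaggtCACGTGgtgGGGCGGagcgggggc

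**Figure D2:**
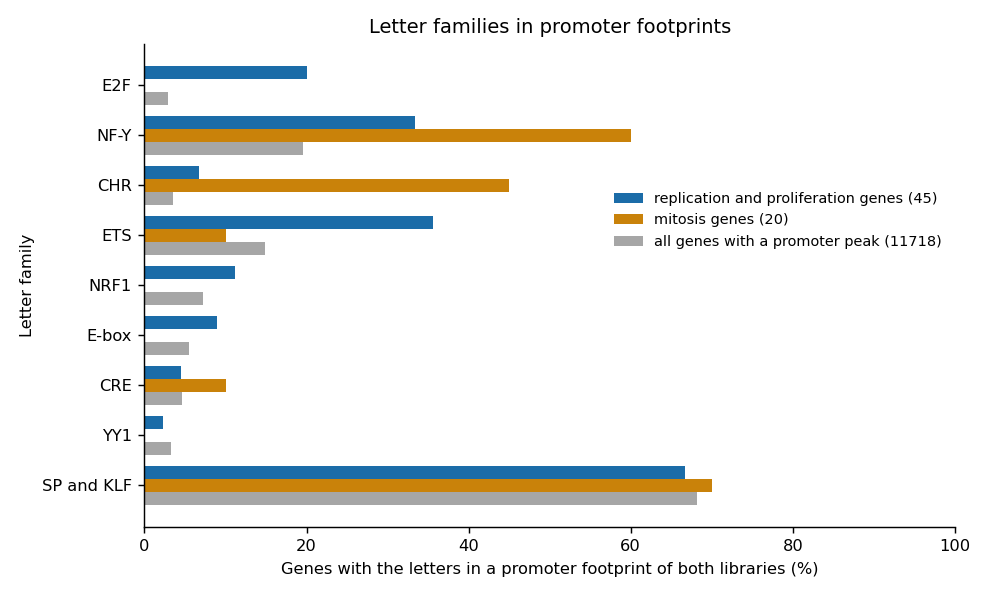
Share of genes (%) with each letter family in a promoter footprint of both libraries, for the 45 replication and proliferation genes, 20 genes of mitosis and all 11718 genes with a promoter peak. E2F letters are at 20% against 2.90%, whereas CHR letters are at 45% in the genes of mitosis.

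Promoter signal, the deposited value of a gene's strongest promoter peak, had a median of 7.69 over the 45 genes (mean of both libraries) and 5.59 over all genes with a promoter peak in both. By library the medians were 7.73 and 7.44, against 5.89 and 5.23. Of the 45 genes, 32 lay above the median of all genes, 16 above its upper quartile (9.35) and 1, Pole2, below its lower quartile (2.87). The unit is not stated, the value is not per length, and in bulk tissue fewer open cells and less openness per cell cannot be told apart. Widths differed little, with a median of 240 bp among these genes and among all genes in each library.

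Among licensing genes the median was 9.20, the highest of the 5 roles. Orc4, a subunit of the origin recognition complex, had signals of 15.9 in replicate 1 and 16.5 in replicate 2 (16.2 ± 0.459, SD, n = 2), and Mcm4, a helicase subunit, 12.8 and 16.5. The lowest were the complex's subunits Orc2 (4.64 and 4.73) and Orc3 (5.92 and 4.85), both below Orc4 in each library without overlap. The genes of the helicase ring ran from Mcm3 (5.17 and 6.14) to Mcm5 (14.7 and 14.6) and Mcm4. Mcm2, Mcm6 and the loader gene Cdc6 were above 10 in both libraries, as were Mcm4, Mcm5 and Orc4. Cdt1 had 9.01 and 7.66 and its inhibitor Gmnn 7.59 and 6.91, with the signals of Orc6, Orc1, Mcm7 and Orc5 between 4.77 and 10.7.

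Among the 6 firing genes the GINS subunits held both high and low values. Gins2 had 17.6 and 21.1, the second highest mean of all 45 genes, and Gins4 12.4 and 12.6. Gins3 had 5.91 and 5.69 and Cdc45, the helicase's cofactor, 4.56 and 5.70, near the median of all genes. Gins1 (9.20 and 7.44) and Mcm10 (6.94 and 6.13) lay between these pairs.

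At the fork, the genes of polymerase delta were high, and the polymerase epsilon genes Pole and Pole2 and the primase genes were low. Pold1, the catalytic subunit of delta, had the highest mean of the 45 genes, with 23.8 and 19.03 (21.4 ± 3.36, SD, n = 2). Pold3 had 14.3 and 14.1 and Pold2 11.8 and 12.6. Pole, the catalytic subunit of epsilon, had 3.36 and 2.83 and its partner Pole2 3.26 and 2.41. The primase genes Prim1 (4.37 and 3.51) and Prim2 (4.10 and 3.08) and the polymerase alpha gene Pola2 (5.27 and 4.52) were below every delta gene in both libraries, without overlap. The low signals came with wide and with narrow peaks: that of Pole2 was 400 and 480 bp wide and that of Prim1 180 and 200 bp. The peak of Pold1 was 220 bp wide in both libraries. Grouping by polymerase was chosen after the values were seen. Polymerase genes outside the 45 did not all follow their complex, since the small epsilon subunits Pole3 (9.53 and 9.05) and Pole4 (11.9 and 8.28) were high. The delta subunit Pold4 (10.4 and 11.2) was high, like the other delta genes. Pola1, the catalytic subunit of alpha, was low (1.74 and 1.75), like Pola2.

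The remaining fork genes covered a wide range. The single-strand binding genes Rpa1, Rpa2 and Rpa3 were all above the median of all genes in both libraries, from 8.96 to 13.4 in replicate 1 and from 9.58 to 14.0 in replicate 2. The sliding clamp gene Pcna had 11.2 and 12.5. Its loader spanned Rfc1 (4.13 and 3.74) to Rfc2 (10.9 and 10.02), with Rfc3, Rfc4 and Rfc5 between. Of the genes that finish lagging-strand fragments, Lig1, the ligase, had 7.59 and 7.01 and Fen1 5.02 and 4.17.

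Nucleotide supply genes differed among themselves. Thymidylate synthase, Tyms, had 3.09 and 2.86, while the ribonucleotide reductase genes Rrm1 (6.70 and 8.67) and Rrm2 (8.76 and 6.65) overlapped each other and exceeded Tyms in both libraries. Top2a had 10.03 and 7.64 and Mki67 5.07 and 5.25. The thymidine kinase gene Tk1, outside the 45, was also low (1.78 and 2.10), and the deoxycytidine kinase gene Dck was high (18.1 and 20.1). Medians of the further lists were 7.98 for 24 fork and origin genes, 7.47 for 12 nucleotide supply genes, 6.51 for 20 E2F, RB and DREAM genes and 6.82 for 20 genes of mitosis.

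**Figure D3:**
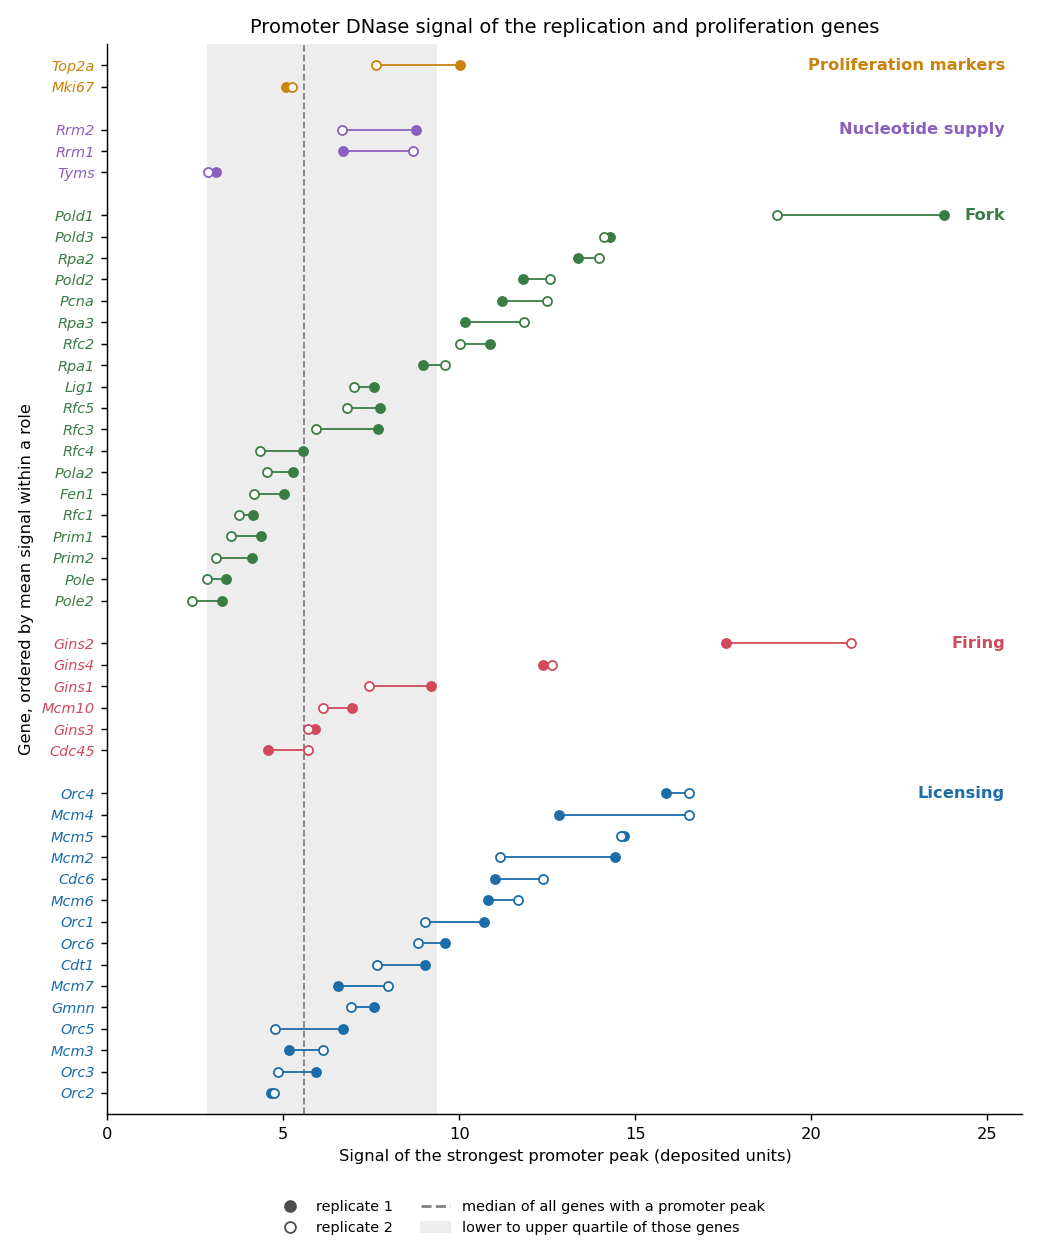
Signal of the strongest promoter peak (deposited units) of each of the 45 genes in replicate 1 (filled) and replicate 2 (open), grouped by role and ordered by mean. The dashed line is the median of all genes with a promoter peak (5.59) and the grey band spans their lower to upper quartile (2.87 to 9.35). The 3 delta polymerase genes lie right of the band in both libraries, and Pole and Pole2 lie at its left edge.

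Spearman's rho between them was 0.955 across the 45 genes and 0.966 across all 11718, which share peak calling and are not replicates. Signals of replicate 2 were lower as deposited (median log2 ratio -0.17 over 37494 overlapping peak pairs), and ratios were centred on that value. After centring, the 45 genes ran from -0.32 (Orc5) to 0.54 on the log2 scale, and 0 of them left the range of -0.64 to 0.63 that held 95% of all genes. The largest were Rrm1 (0.54), Mcm4 (0.54), Cdc45 (0.49), Mcm7 (0.46) and Gins2 (0.44), all higher in replicate 2. After centring, 26 of the 45 genes were above 0, and their median was 0.05. The median over all genes with a promoter peak in both was also above 0, at 0.03. Cell type markers also moved between the libraries: all 11 open thymocyte genes were higher in replicate 2 (0.01 to 0.40, median 0.33), while the 3 open thymic epithelium genes (-0.48 to -0.33) and the 2 open fibroblast genes (-0.72 and -0.67) were lower. Summed over each marker list as deposited, promoter signal was 63.8 and 70.6 for thymocyte, 9.12 and 6.08 for epithelium and 6.72 and 3.18 for fibroblast genes. Foxn1, Psmb11, Krt5, Krt8, Col1a2 and Col3a1 had no promoter peak of the shorter peak list in either library. The longer peak list held 1 for Krt8 (0.41) and 1 for Col1a2 (0.34) in replicate 1. The part of these marker shifts in the differences of the replication genes was not tested. For Mcm7 the 2 values come from different peaks, at chr5:138170961-138171400 in replicate 1 and chr5:138171821-138172100 in replicate 2.

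**Figure D4:**
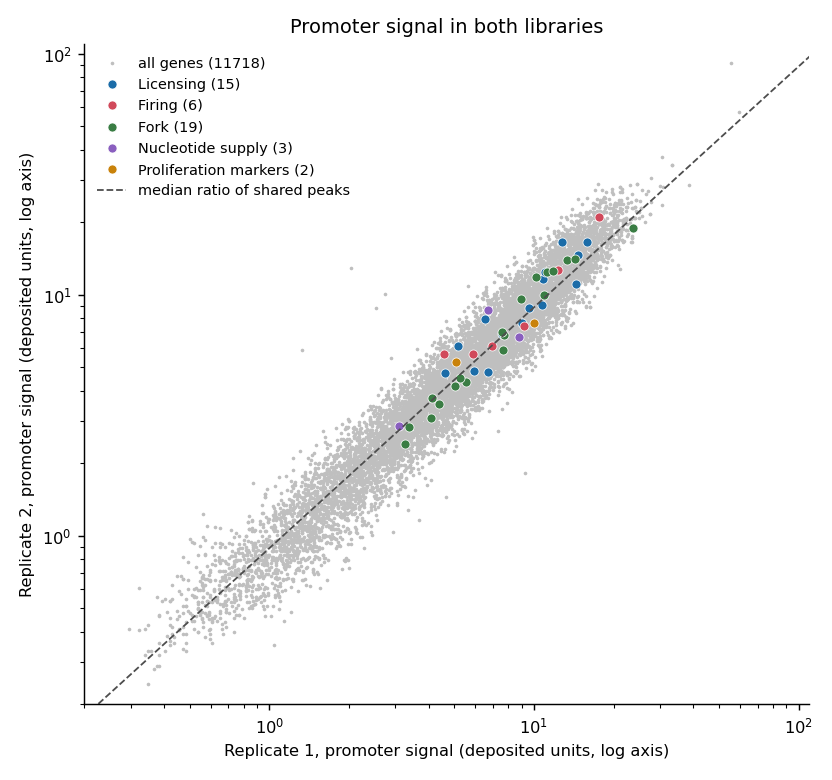
Promoter signal in replicate 1 (x, log axis) against replicate 2 (y, log axis) for all 11718 genes with a promoter peak in both (grey) and the 45 genes coloured by role. The dashed line is the median ratio of overlapping peaks. All 45 genes lie within the cloud of all genes, in its upper part for Pold1, Gins2 and Orc4.

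Some promoters are shared with a neighbour. Another protein-coding start lay within 1 kb of the strongest promoter peak for 12 of the 45 genes (26.7%, against 19.6%): Cdc45 with Ufd1, Pole with Pxmp2, Fen1 with Tmem258, Orc3 with Rars2, Mcm7 with Ap4m1, Mcm4 with Prkdc, Orc4 with Mbd5, Lig1 with Zswim9, Rpa1 with Smyd4, Rpa3 with Umad1, Orc6 with Vps35 and Orc1 with Prpf38a. For the last 5 the neighbour's start was the nearer. Signals of these peaks cannot be given to 1 gene of the pair, and this touches Orc4 and Mcm4 at the top of the licensing genes and Pole near the bottom of the fork genes. Outside the 45, the same limit holds for Pole3 and Tk1. In replicate 1 the peak of Pole3 was centred 32 bp from the start of 4933430I17Rik and at -333 bp from its own. That of Tk1 was 74 bp from the start of Afmid and at 242 bp from its own.

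Footprint numbers were close to those of all open promoters. The median number of footprints within 1 kb of a start was 9 in these genes and 9.5 in all genes with a promoter peak in both, with 5 and 5 inside the strongest peak. Mcm7 had the most, 19 in each library, and Pola2 the fewest by mean, 3 and 5. The GC content of the RefSeq promoter window had a median of 60% in the 37 members found. It was 61.3% in the genes found there that had a promoter peak in both libraries. The median number of CpG was 21 in each set.

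Away from promoters, the median number of peaks was at the level of all genes and below that of genes with an open promoter. The median number of distal peaks, over 1 kb from every protein-coding start, was 0.5 per gene. It was 0.5 for all genes and 1 for genes with an open promoter in both libraries. Over the gene and 10 kb on each side the median was 2.5 peaks, promoter peaks included, against 2 for all genes and 3.5 for genes with an open promoter, while 12 thymocyte marker genes had 6.5. A distal peak was found in both libraries for 19 of 45 genes (42.2%, against 43.2% of all genes, with or without an open promoter). By role these were 13 of 19 fork genes, 5 of 15 licensing genes, Rrm2 among the 3 nucleotide supply genes, 0 of 6 firing genes and neither marker. For 17 of the 45 genes no distal peak was found in either library, against 10068 of all 21755 genes. The distal peaks were weak, with a median signal of 1.39 over 48 peaks in replicate 1 and 1.25 over 35 in replicate 2, and 28 of each overlapped a distal peak of the other library.

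The most distal peaks were found around Rpa1 (5 and 6), Prim2 (4 and 3), Cdt1 (3 and 2), Cdc6 (2 and 3) and Rrm2 (3 and 2). The strongest in replicate 1 lay beyond the end of Rpa1, outside genes, at chr11:75290981-75291200, with signals of 4.92 and 2.73. An intronic peak of Mcm2, which began at chr6:88886501 in both libraries, had 4.39 and 4.64. Cdc6 had an intronic peak that began at chr11:98909741, 1690 bp from its start in replicate 1, with 3.36 and 2.15. A distal peak in the window of a gene need not act on it: those of Pold1 lay in exons of Spib.

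**Figure D5:**
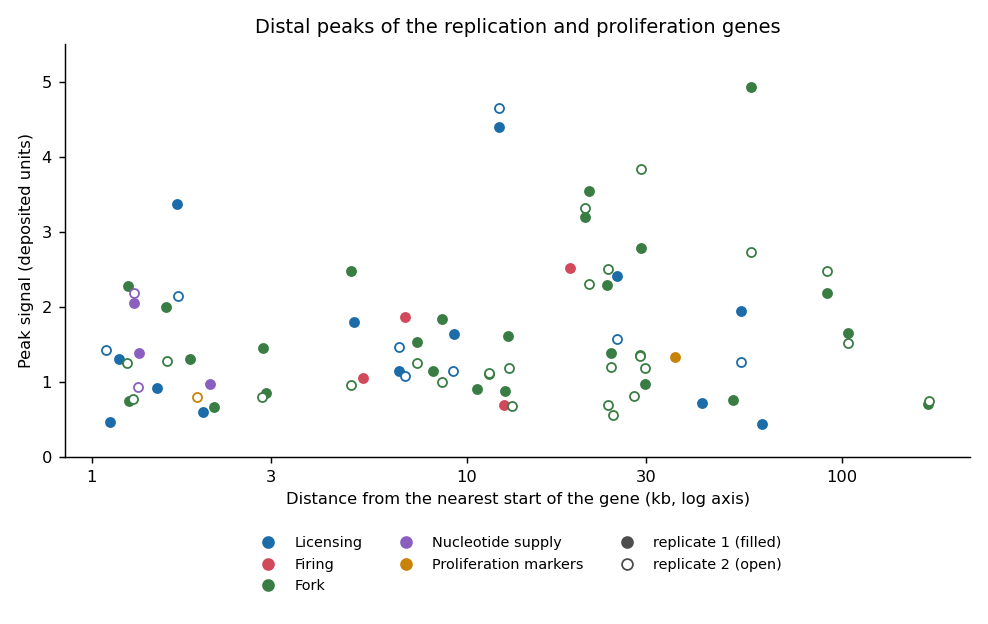
Signal (deposited units) of each distal peak in the span and 10 kb flanks of the 45 genes against its distance from the nearest start of that gene (kb, log axis), in replicate 1 (filled) and replicate 2 (open), coloured by role. All lie below 5, and the highest belong to Rpa1 and Mcm2.

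The libraries held 50648 and 49872 peaks in the shorter list and 223227 and 247677 footprints. Read depth is not stated in the sources used here. Signals were whole multiples of 1 step per library within a tolerance of 0.1 steps, and the median member promoter held 864 and 1140 steps, so that, were each step an independent cut, counting alone would add an error of 3.40% and 2.96%. The label of thymus was checked on marker genes with the shorter peak list. Promoter peaks in both libraries were found for 11 of 12 thymocyte, 3 of 7 thymic epithelium and 2 of 5 fibroblast genes. Others were 2 of 4 endothelium, 1 of 4 adipocyte, 1 of 6 B cell, 0 of 5 myeloid and 0 of 3 hepatocyte genes. Over all genes the share was 53.9%. The epithelium and endothelium counts are near that share. With the longer list, 12 of 12 thymocyte, 3 of 6 B cell and 2 of 5 myeloid genes had such peaks, beside 58.3% of all genes. Counts of the other types were the same. How much each cell type gave to the signal of the replication genes was not tested.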

How the data were processed

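DNase-seq was run on 2 thymus libraries, and each was analysed from its own files on mm10, per the file notes. The peak caller, aligner and thresholds are not given in the sources used for this work. Peak signal (column 7) was used as the authors deposited it. The q-values per run of bases that the authors deposited reached 0.0499 in both libraries. Footprints carried the constant 0.01 as deposited, so positions alone were used. The shorter of the 2 peak lists of a library was the main list. Genes and starts came from the GENCODE vM21 basic annotation (chromosome Y left out) and sequence from GRCm38.p6, which fits mm10: 0 deposited intervals passed a chromosome end. Promoter windows came from RefSeq. A peak was assigned by its centre, a footprint likewise. Python 3.11.15, pandas 2.3.3, numpy 2.4.6, pysam 0.24.0, samtools 1.23.1 and matplotlib 3.10.9 were used, and counting was tested on simulated data. Members and lists were chosen with earlier results of these data known.

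Values in both libraries were given for the 2 highest and 2 lowest genes of each role by mean promoter signal, genes without a promoter peak (none), the 5 with the largest centred difference between libraries and the 5 with the most distal peaks. Other genes named with values were chosen after their values were seen. Sequences were chosen as the 6 highest-signal genes with E2F letters in footprints of both libraries and the 2 highest without. Alternatives changed the peak list, peak strength, window, overlap, scaling, flank, joining, footprint sharing, widening, letters and library.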

Additional observations from a re-analysis of the deposited data

How the results depend on the processing

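No paired analysis was possible because there was 1 group of 2 libraries. The 45 of 45 open promoters stayed between 44 and 45 under all 9 alternatives. The 44 came from requiring the promoter peaks of both libraries to overlap by 50% of both, which Rfc2 missed. Leaving out a library in turn gave 45 and 45 open promoters, a median signal of 7.44 to 7.73, 2 to 3 peaks per gene, 9 and 9 footprints and 10 to 12 genes with E2F letters. Dividing by the library's median peak signal gave a median of 4.96, against 3.62 for all genes. Peaks per gene came to 3.5 (all genes 3) with the longer list and 1 (all genes 0.5) without flanks. Footprints came to 8.5 (8.5) within 500 bp, 9.5 (10.5) within 2500 bp and 7 (6) when shared by both libraries. Genes with E2F letters came to 2 without widening and to 14 with 7-letter forms (31.1%, against 12.3% of all genes). Read depth is unknown, so a missing footprint or peak is not evidence of absence, and the cause of these shifts was not tested.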
